A study of Arabidopsis thaliana with 8 samples.

Results

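The genotype by lincomycin interaction was measured for 20251 genes of 36917 loci. It asks, gene by gene, whether lincomycin changed a transcript in irx3-2 by a different factor than in wild type. The members were all genes with at least 10 normalised counts in at least 2 of the 8 libraries, and the interaction is the log2 lincomycin effect in irx3-2 minus the log2 lincomycin effect in Col-0. Whole Arabidopsis thaliana seedlings 5 days old were used, raised under continuous white light (100 µmol per m2 and second) at 22 °C on plates of MS, a mineral salt medium, with 1% sucrose. The 4 groups were irx3-2 with lincomycin at 50 µg/ml (irx3-2 Lin), irx3-2 without it (irx3-2 MS), Col-0 wild type with lincomycin (Col-0 Lin) and Col-0 without it (Col-0 MS), each with 2 libraries. The labels give neither the lesion of irx3-2 nor whether both libraries of 1 group stem from plants sown apart, so p-values measure the spread between these libraries, which may be technical.

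Lincomycin is an antibiotic that stops translation on plastid ribosomes, and seedlings that germinate on it do not build green chloroplasts. Loss of plastid translation sends a retrograde signal that lowers nuclear photosynthesis transcripts, and it is used for that purpose in studies of plastid-to-nucleus signalling. IRX3 is CESA7, a cellulose synthase subunit that makes cellulose of secondary walls in xylem. A gene whose response to lincomycin is the same in both genotypes has an interaction of 0, whatever its level in each genotype and however strong its response.

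The libraries held 15032240 to 19488440 counted reads. Plastid-encoded genes took 20.7% and 18.8% of the reads in irx3-2 Lin, 58.1% and 55.2% in irx3-2 MS, 20.4% and 19.6% in Col-0 Lin and 54.1% and 55.0% in Col-0 MS, so nuclear genes were read less deeply on MS. Markers of green tissue, root, phloem, epidermis and xylem were detected in every library, as for whole seedlings. The summed level of 11 seed storage and maturation genes was 1184 and 1063 normalised counts in irx3-2 Lin, 920 and 1342 in irx3-2 MS, 153 and 99.0 in Col-0 Lin, and 218 and 189 in Col-0 MS. Seed transcripts were thus higher in both irx3-2 groups than in both Col-0 groups, with no overlap. SESA1 was at 0 reads in both Col-0 groups, SESA2 in Col-0 Lin and SESA3 in Col-0 MS. EM1 was at 0 reads in irx3-2 MS and in Col-0 MS. The part of the seed transcripts in the results below was not tested. The summed level of 7 xylem markers was 753 and 782 in irx3-2 Lin, 1391 and 1257 in irx3-2 MS, 1029 and 1009 in Col-0 Lin, and 1694 and 1632 in Col-0 MS. In whole seedlings, fewer cells of a type and less RNA per cell cannot be told apart.

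A small set of genes passed the test for a lincomycin response that differed by genotype. Among them were enzymes of anthocyanin synthesis, ribosome assembly factors and peroxisomal enzymes on the higher side, and touch-induced genes and iron regulators on the lower side. Of the 20251 genes, 133 (0.657%) passed the interaction test at an adjusted p of 0.05, from limma with Benjamini-Hochberg adjustment over all genes. The interaction was higher for 72 genes (0.356%), meaning that the effect in irx3-2 lay above that in Col-0, and lower for 61 (0.301%). For comparison, lincomycin changed 6835 genes (33.8%) in irx3-2 and 5921 (29.2%) in Col-0. By direction, 3197 rose and 3638 fell in irx3-2, and 2431 rose and 3490 fell in Col-0. At an unadjusted p below 0.05 the interaction reached 2556 genes (12.6%). Over all genes the median interaction was 0.03, the median SE was 0.31, and the middle 90% of values, between the 5th and 95th percentiles, ran from −0.97 to 1.16. The smallest interaction that passed was 0.71, and 102 of the 133 were at least 2-fold, 56 of them higher and 46 lower. Changes given without a unit below are on the log2 scale of the normalised count plus 1, with the SE of the fit, which understates the change of genes near 0.

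**Figure D1:**
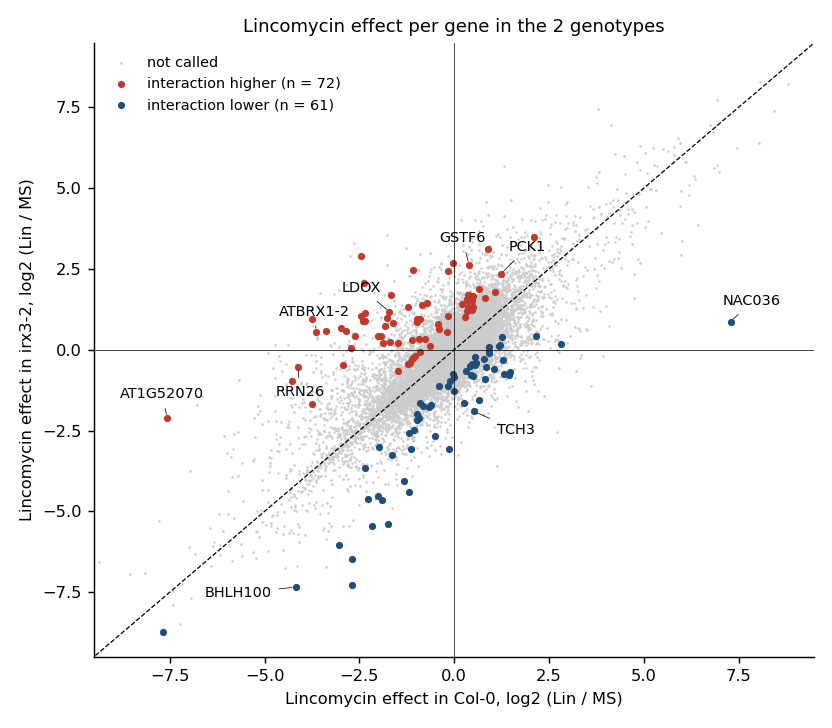
Each point is 1 of the 20251 genes, with the lincomycin effect in irx3-2 (log2, Lin over MS) on the vertical axis and that in Col-0 on the horizontal axis. The 72 genes with a higher interaction (red) lie above the dashed line of equal effects and the 61 with a lower one (blue) below it, while the other genes spread along the line.

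The 133 genes differed in which way they went. Among the 72 higher genes, 21 rose in irx3-2 and fell in Col-0, 19 fell in Col-0 and were not called in irx3-2, 14 rose in both, 11 rose in irx3-2 and were not called in Col-0, and 7 fell in both. Among the 61 lower genes, 26 fell in both, 13 fell in irx3-2 and rose in Col-0, 12 rose in Col-0 and were not called in irx3-2, 9 fell in irx3-2 and were not called in Col-0, and 1 rose in both. The group farthest from the other 3 was Col-0 Lin, on the low side, for 33 of the higher genes and irx3-2 Lin, on the high side, for 32. For the lower genes it was irx3-2 Lin, on the low side, for 38 and Col-0 Lin, on the high side, for 17. Of the 133 genes, 127 were nuclear protein-coding. The 86 mitochondrial genes tested held 3 of them and the 118 plastid-encoded genes tested held 0, beside 0.657% of all genes.

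The number of calls changed when single libraries were left out. It was 18 without irx3-2 Lin replicate 2 and 23 without replicate 3, and 13 without Col-0 Lin replicate 1 and 11 without replicate 3. It was 302 without irx3-2 MS replicate 1 and 361 without replicate 2, and 73 without Col-0 MS replicate 2 and 70 without replicate 3. All 133 genes kept the sign of the interaction in each of these 8 fits. The SD of the log2 difference between replicates was 0.776 in irx3-2 MS and 0.700 in Col-0 MS. It was 0.491 in irx3-2 Lin and 0.425 in Col-0 Lin. A fit without 1 library takes the residual spread only from the groups that kept 2, so these fits are not alike in spread. The part of this in the number of calls and passes was not tested. Of the 133, 10 passed in all 8 fits and 24 in at least 5, and the number of passes is given with most of the genes described below.

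A set of 8 flavonoid and anthocyanin enzyme genes rose in irx3-2 on lincomycin, while in Col-0 5 of them fell, 2 were not called and 1 rose by less. This pathway turns a phenylpropanoid precursor into flavonols and into anthocyanins, the red and purple pigments that seedlings lay down under stress or with sugar. Of 17 enzyme genes tested, 8 passed with a higher interaction (all genes 0.356%) and none with a lower one. The median interaction of the 17 was 1.26, against 0.03 over all genes. In irx3-2, 14 of the 17 rose on lincomycin and none fell, and in Col-0 3 rose and 5 fell. Over all 20251 genes, 3197 rose and 3638 fell in irx3-2, and 2431 rose and 3490 fell in Col-0. The members called were 3 early enzymes of 7 tested and 5 late enzymes of 10.

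LDOX (AT4G22880, chr4:12004726-12006209 of TAIR10.1), leucoanthocyanidin dioxygenase, which makes the coloured anthocyanidin, stood at normalised counts of 1134 and 862 in irx3-2 Lin, 571 and 334 in irx3-2 MS, 117 and 128 in Col-0 Lin, and 489 and 329 in Col-0 MS. The Col-0 Lin libraries lay below all others and the irx3-2 Lin libraries above all others. The lincomycin effect was 1.18 in irx3-2 and −1.71 in Col-0, a 7.38-fold difference (interaction 2.88 ± 0.36 SE, adjusted p = 0.00684). DFR (AT5G42800, chr5:17164093-17166032), dihydroflavonol reductase, the enzyme before it, stood at 1184 and 1054 in irx3-2 Lin, 726 and 549 in irx3-2 MS, 144 and 139.5 in Col-0 Lin, and 568 and 329 in Col-0 MS. Its pattern was that of LDOX, with all 4 lincomycin libraries outside the range of the MS libraries, on opposite sides in the genotypes (interaction 2.42 ± 0.32 SE, adjusted p = 0.00936). A stretch of LDOX, 24.9% of the gene, has a copy at 96.2% identity elsewhere on the same chromosome, so some of its reads could have been shared.

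Of the genes that decorate or carry anthocyanin, 3 passed. GSTF12 (AT5G17220), a glutathione transferase that is needed to bring anthocyanin to the vacuole, had 678 and 663 in irx3-2 Lin, 291 and 207 in irx3-2 MS, 111 and 103 in Col-0 Lin, and 204 and 153 in Col-0 MS. No irx3-2 Lin library overlapped any other group, and the Col-0 Lin libraries were the lowest (interaction 2.17 ± 0.28 SE, adjusted p = 0.00871). UGT79B1 (AT5G54060), which adds xylose to anthocyanin, had 568 and 455 in irx3-2 Lin, 212 and 195 in irx3-2 MS, 83.0 and 45.5 in Col-0 Lin, and 179 and 116 in Col-0 MS (interaction 2.54 ± 0.41 SE, adjusted p = 0.0225). UGT75C1 (AT4G14090), the anthocyanidin 5-O-glucosyltransferase, had 393 and 365 in irx3-2 Lin, 164 and 127 in irx3-2 MS, 50.6 and 63.9 in Col-0 Lin, and 127 and 82.9 in Col-0 MS (interaction 2.22 ± 0.35 SE, adjusted p = 0.0213). It is covered to 27.1% by another gene, and the counting of reads in overlaps is not stated. In all 3 genes the irx3-2 Lin libraries were the highest and the Col-0 Lin libraries the lowest.

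Early enzymes differed in form. CHS (AT5G13930), chalcone synthase, which makes the first flavonoid, had 11084 and 11491 in irx3-2 Lin, 3234 and 3350.2 in irx3-2 MS, 7577 and 6774 in Col-0 Lin, and 3442 and 3381 in Col-0 MS and rose in both genotypes, by more in irx3-2 (interaction 0.71 ± 0.13 SE, adjusted p = 0.0433). F3'H (AT5G07990), flavonoid 3'-hydroxylase, had 810.5 and 638 in irx3-2 Lin, 96.4 and 177 in irx3-2 MS, 97.7 and 107 in Col-0 Lin, and 144 and 91.7 in Col-0 MS (interaction 2.62 ± 0.41 SE, adjusted p = 0.0213), and UGT78D2 (AT5G17050), which adds glucose to anthocyanidins and flavonols at position 3, had 1008 and 939 in irx3-2 Lin, 483 and 460.1 in irx3-2 MS, 458 and 419 in Col-0 Lin, and 495 and 492 in Col-0 MS (interaction 1.21 ± 0.16 SE, adjusted p = 0.00919). Both rose in irx3-2 and were not called in Col-0, where the lincomycin libraries lay within or just under the range of the MS libraries. The 9 enzyme genes that did not pass were 5MAT (2.26 ± 0.48, adjusted p = 0.0736), CHI (1.26 ± 0.27, adjusted p = 0.0708), AT1G03495 (1.29 ± 0.47), CHIL (0.66 ± 0.20), AT1G03940 (0.55 ± 0.46), FLS1 (0.45 ± 0.20), UGT78D1 (0.23 ± 0.19), BGLU10 (−0.07 ± 0.33) and SCPL10 (−0.12 ± 0.21). AT1G03495 and AT1G03940 are acyltransferase genes that share over 95% of their bases. F3H, flavanone 3-hydroxylase, did not reach the filter, with at most 3.27 normalised counts, and it is covered to 94.5% by another gene. UGT78D3 did not reach it either, nor did the regulators MYB90, MYB113 and MYB114.

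Leaving out single libraries changed this group's count. It was 0 without irx3-2 Lin replicate 2, 1 without replicate 3, 1 without Col-0 Lin replicate 1, 0 without replicate 3 and 4 without Col-0 MS replicate 2, and 8 to 10 in the other 3 fits. The adjusted p of LDOX was at most 0.0802 in these fits and that of CHS at most 0.317, and both kept their sign.

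**Figure D2:**
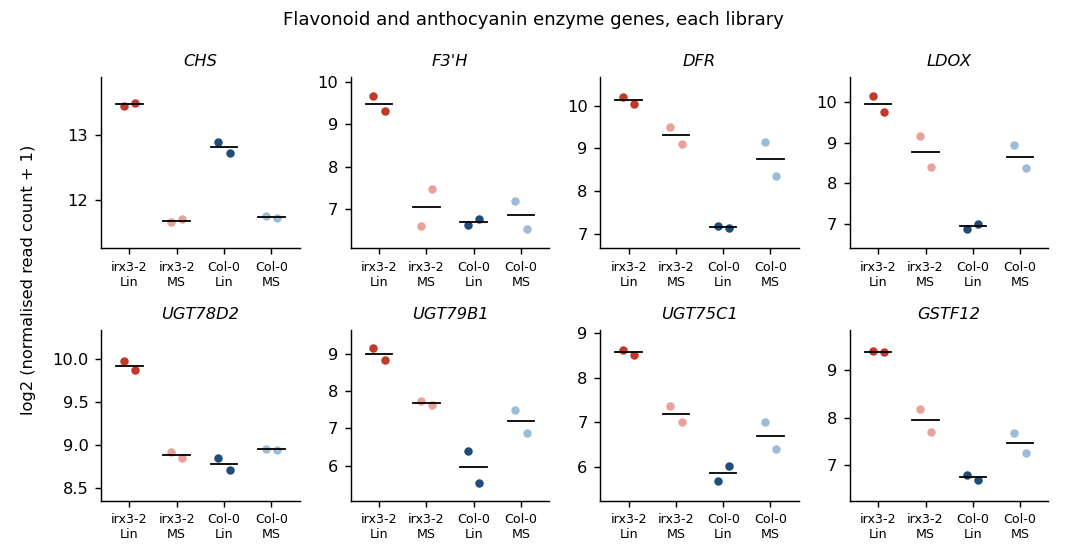
Level in each library, as log2 of the normalised read count plus 1, of the 8 called flavonoid and anthocyanin enzyme genes in irx3-2 Lin, irx3-2 MS, Col-0 Lin and Col-0 MS; points are libraries and bars are means of 2. The irx3-2 Lin libraries are the highest in all 8 genes, and the Col-0 Lin libraries are the lowest in DFR, LDOX, UGT75C1, UGT79B1 and GSTF12.

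Regulators of the pathway did not pass. Of 16 tested, 0 had a called interaction in limma, edgeR or DESeq2, beside 0.657% of all genes in limma. An unadjusted p below 0.05 was found for 2 (all genes 12.6%), and the median was 0.26. MYB75 (AT1G56650), the activator of the late genes, had 61.7 and 54.2 in irx3-2 Lin, 63.3 and 30.1 in irx3-2 MS, 7.06 and 8.61 in Col-0 Lin, and 21.4 and 14.5 in Col-0 MS (1.48 ± 0.66, adjusted p = 0.382). Its irx3-2 libraries lay above all Col-0 libraries. TT8, a bHLH partner of MYB75, had 1.47 ± 0.68 (adjusted p = 0.410), and MYBL2, a repressor of the pathway, had −0.99 ± 0.52 (adjusted p = 0.477). The other activators and partners were MYB11 at 1.49 ± 0.90, MYB111 at 0.79 ± 0.66, EGL3 at 0.70 ± 0.56, MYB12 at 0.36 ± 0.84, GL3 at 0.15 ± 0.86 and TTG1 at −0.18 ± 0.19. The light-signalling factors HYH and HY5 had 0.46 ± 0.23 and 0.14 ± 0.27, and SPL9 had 1.17 ± 0.90. The negative regulators LBD37, LBD38, LBD39 and CPC had −0.58 ± 0.15, −0.40 ± 0.25, −0.34 ± 0.37 and −0.86 ± 0.75. MYB11 is covered to 25.3% by another gene. Of the 16, 9 stayed under 100 normalised counts in every library and had SEs of 0.56 to 0.90, so an interaction such as the one fitted for MYB75 was not detectable at this depth.

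The 250 bases before the annotated start were searched for 8 motifs on both strands. The G-box CACGTG, bound by bZIP and bHLH factors such as HY5, stood in 13 of the 69 promoters of higher genes (18.8%), in 3 of the 61 of lower genes (4.92%) and in 1473 of 20046 over all nuclear genes tested (7.35%). The 5 flavonoid and anthocyanin enzyme genes of 17 that held it were CHS, DFR, UGT79B1, CHIL and SCPL10, of which the first 3 were called. The MYB-type motif ACCAACC stood in 8.70% of the higher, 3.28% of the lower and 2.81% of all promoters, and ACCTACC in 0%, 0% and 1.21%. The W-box cores TTGACC and TTGACT, bound by WRKY factors, each stood in 12 of the 69 higher promoters. In the lower ones they stood in 10 and 15 of 61, and over all in 2392 and 3657 of 20046. The evening element AAAATATCT stood in 2.90%, 0% and 2.47%, the heat shock element GAANNTTC in 7.25%, 14.8% and 9.08%, and the mitochondrial dysfunction motif in 4.35%, 0% and 1.45%, in the same order. TTGACC and TTGACT differ in their last base, and the end of the mitochondrial dysfunction motif can share bases with CACGTG. Of the higher promoters with that motif, those of AT1G24580 and ADH1 also held CACGTG and that of AT3G06145 did not. The shares of these motifs are therefore not separate observations. These shares are descriptions with no test, and a match is not a bound site.

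Promoters of 4 called genes are printed 5′ to 3′ from the RefSeq genome TAIR10.1, 3 of the anthocyanin pathway with and without a G-box and BHLH100, which had the opposite sign. Capitals mark the motifs searched.
DFR, chr5:17166033-17166282, minus strand: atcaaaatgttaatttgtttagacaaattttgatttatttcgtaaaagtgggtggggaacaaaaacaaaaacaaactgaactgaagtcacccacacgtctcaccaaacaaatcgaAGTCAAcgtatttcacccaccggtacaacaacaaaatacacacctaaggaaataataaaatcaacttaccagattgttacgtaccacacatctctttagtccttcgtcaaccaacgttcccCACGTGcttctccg
UGT79B1, chr5:21938397-21938646, minus strand: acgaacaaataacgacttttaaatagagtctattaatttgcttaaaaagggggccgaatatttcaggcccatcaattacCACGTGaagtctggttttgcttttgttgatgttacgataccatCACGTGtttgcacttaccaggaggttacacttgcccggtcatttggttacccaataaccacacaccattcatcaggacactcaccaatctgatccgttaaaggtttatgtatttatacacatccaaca
LDOX, chr4:12006210-12006459, minus strand: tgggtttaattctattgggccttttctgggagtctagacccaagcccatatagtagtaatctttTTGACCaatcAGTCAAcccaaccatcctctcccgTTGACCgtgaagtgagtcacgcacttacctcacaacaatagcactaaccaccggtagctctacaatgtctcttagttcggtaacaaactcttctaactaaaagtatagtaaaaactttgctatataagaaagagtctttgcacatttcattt
BHLH100, chr2:17199455-17199704, minus strand: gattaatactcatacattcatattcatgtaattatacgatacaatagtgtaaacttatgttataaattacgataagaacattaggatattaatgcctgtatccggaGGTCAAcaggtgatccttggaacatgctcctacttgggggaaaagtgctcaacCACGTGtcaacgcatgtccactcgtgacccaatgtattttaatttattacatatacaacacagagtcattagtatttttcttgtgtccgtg
DFR and BHLH100 each hold 1 G-box and 1 W-box core. UGT79B1 holds 2 G-boxes and no W-box core, and LDOX holds no G-box and 3 W-box cores. A G-box therefore stood in promoters of genes with interactions of either sign.

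A group of 4 ribosome assembly genes fell on lincomycin in Col-0 and did not fall in irx3-2. Brix-domain proteins assemble the large and small ribosomal subunits in the nucleolus. This group was put together after the values had been seen, so its counts only describe it. Of 6 members, 4 passed with a higher interaction (all genes 0.356%) and the median was 3.09. ATBRX1-2 (AT1G52930, chr1:19711179-19713308), an ortholog of yeast BRX1, stood at 309 and 318 in irx3-2 Lin, 208 and 219 in irx3-2 MS, 23.5 and 22.1 in Col-0 Lin, and 294 and 295 in Col-0 MS. The Col-0 Lin libraries were far below all 6 others. The lincomycin effect was 0.55 in irx3-2 and −3.63 in Col-0 (interaction 4.19 ± 0.24 SE, adjusted p = 4.64e-05), and ATBRX1-2 passed in all 8 fits without 1 library. MEE49 (AT4G01560) stood at 434 and 444 in irx3-2 Lin, 267 and 324 in irx3-2 MS, 47.1 and 51.0 in Col-0 Lin, and 385 and 333 in Col-0 MS, again with the Col-0 Lin libraries alone at the bottom (interaction 3.42 ± 0.23 SE, adjusted p = 8.89e-05, all 8 fits).

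IMP4 (AT1G63780), a protein of the small nucleolar ribonucleoprotein, stood at 384 and 361 in irx3-2 Lin, 176 and 308 in irx3-2 MS, 40.6 and 17.2 in Col-0 Lin, and 208 and 227 in Col-0 MS (interaction 3.66 ± 0.50 SE, adjusted p = 0.0110, 5 of 8 fits). ATBRX1-1 (AT3G15460), the paralog of ATBRX1-2, stood at 126 and 139 in irx3-2 Lin, 107 and 150.4 in irx3-2 MS, 17.7 and 10.4 in Col-0 Lin, and 103 and 87.3 in Col-0 MS (interaction 2.77 ± 0.44 SE, adjusted p = 0.0213, 2 of 8 fits). In both genes the lincomycin libraries of Col-0 lay below the other 6. The other 2 Brix genes, PPAN (0.38 ± 0.21) and AT3G23620 (0.19 ± 0.18), were not called. The count of 4 was 2 without irx3-2 Lin replicate 2, irx3-2 Lin replicate 3 or Col-0 Lin replicate 3, and 3 or 4 in the other fits.

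The ribosomal RNA dimethylases were listed after the values had been seen, and 2 of 3 passed with a higher interaction (all genes 0.356%). DIM1B (AT5G66360), the mitochondrial one, had 141 and 138 in irx3-2 Lin, 56.5 and 101 in irx3-2 MS, 15.3 and 23.4 in Col-0 Lin, and 127 and 87.3 in Col-0 MS (interaction 3.29 ± 0.49 SE, adjusted p = 0.0178, 3 of 8 fits). PFC1 (AT1G01860), the plastid one, covered to 21.1% by another gene, had 109 and 125 in irx3-2 Lin, 92.3 and 112 in irx3-2 MS, 40.6 and 26.4 in Col-0 Lin, and 118 and 128 in Col-0 MS (interaction 2.08 ± 0.38 SE, adjusted p = 0.0400, 2 of 8 fits). The third, DIM1A, had 0.81 in irx3-2 and 0.61 in Col-0 and was not called (0.20 ± 0.19). AT3G13180 (chr3:4235950-4240116), a protein of the NOL1/NOP2/sun family of RNA methyltransferases, had 877 and 747 in irx3-2 Lin, 354 and 441 in irx3-2 MS, 78.3 and 85.4 in Col-0 Lin, and 459.6 and 448 in Col-0 MS. It was described here because it was called, as were the other methyltransferase genes. It rose in irx3-2 and fell in Col-0 (interaction 3.49 ± 0.22 SE, adjusted p = 5.68e-05, all 8 fits). The methyltransferase genes FIO1 (AT2G21070; 0.87 in irx3-2 and −2.34 in Col-0, interaction 3.21 ± 0.44 SE, adjusted p = 0.0101) and AT5G40530 (0.43 in irx3-2 and −2.60 in Col-0, interaction 3.03 ± 0.42 SE, adjusted p = 0.0116) passed as well, each in 4 of 8 fits.

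**Figure D3:**
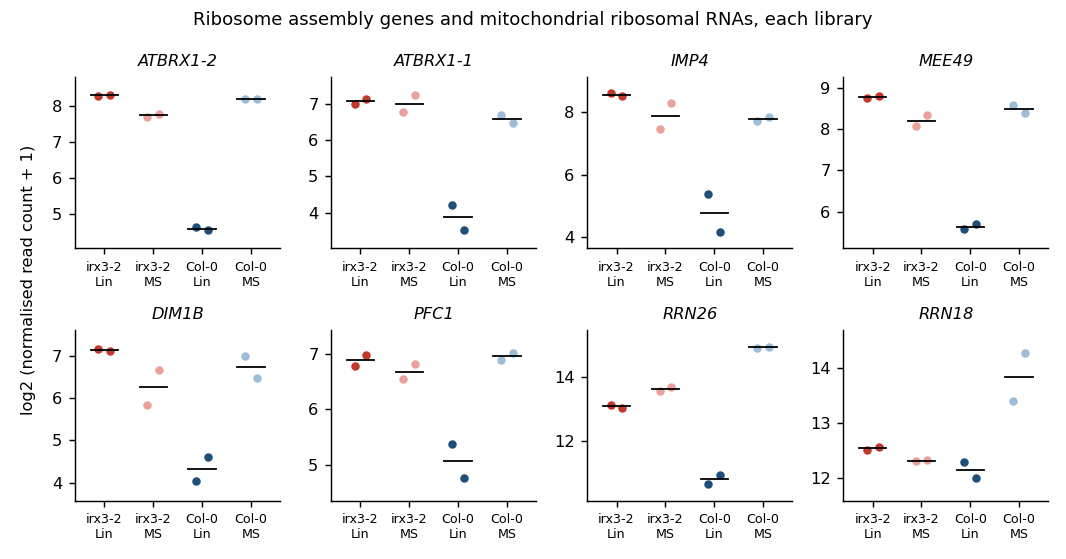
Level in each library, as log2 of the normalised read count plus 1, of 4 Brix-domain genes, 2 ribosomal RNA dimethylase genes and 2 mitochondrial ribosomal RNAs in irx3-2 Lin, irx3-2 MS, Col-0 Lin and Col-0 MS; points are libraries and bars are means of 2. In the first 6 genes the Col-0 Lin libraries stand alone at the bottom; RRN26 is also lower in irx3-2 Lin than in irx3-2 MS.

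Mitochondrial ribosomal RNAs fell on lincomycin in Col-0, and in irx3-2 they fell less or were not called. RRN26, the 26S ribosomal RNA of the mitochondrion, had the smallest adjusted p of all genes. It stood at 8943 and 8497 in irx3-2 Lin, 12103 and 13155 in irx3-2 MS, 1629 and 2003 in Col-0 Lin, and 31053 and 31755 in Col-0 MS. It fell in both genotypes, with effects of −0.53 in irx3-2 and −4.12 in Col-0 (interaction 3.59 ± 0.16 SE, adjusted p = 6.24e-06, all 8 fits), and the groups did not overlap. RRN18, the 18S ribosomal RNA of the mitochondrion, stood at 5857 and 6072 in irx3-2 Lin, 5068 and 5138 in irx3-2 MS, 4997 and 4104 in Col-0 Lin, and 10784 and 19770 in Col-0 MS (interaction 1.91 ± 0.31 SE, adjusted p = 0.0225, 4 of 8 fits), and the Col-0 MS libraries were the highest and far apart from each other. ORF107A, a mitochondrial open reading frame, had 579.8 and 391 in irx3-2 Lin, 1465 and 595 in irx3-2 MS, 321 and 554 in Col-0 Lin, and 7254 and 9225 in Col-0 MS (interaction 3.31 ± 0.53 SE, adjusted p = 0.0216, 2 of 8 fits). Of 86 mitochondrial loci tested, grouped after the values had been seen, these 3 passed with a higher interaction (all genes 0.356%) and the median was 0.34. On lincomycin 43 of the 86 rose and 2 fell in irx3-2, and 18 rose and 5 fell in Col-0. Among all 20251 genes, 3197 rose and 3638 fell in irx3-2, and 2431 rose and 3490 fell in Col-0. The fall of the 3 loci in Col-0 was thus not typical of the 86. How ribosomal RNA was removed is not given in the sources used here. The level of the cytosolic 18S ribosomal RNA locus AT3G41768 was 107716 and 9009 normalised counts in irx3-2 Lin, 33855 and 503 in irx3-2 MS, 24089 and 28710 in Col-0 Lin, and 249.7 and 701924 in Col-0 MS. These levels were far apart within groups, and their part in the values of the mitochondrial ribosomal RNAs was not tested.

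AT2G07739, annotated as a Ycf1 protein gene (chr2:3495511-3496398, minus strand), had 478 and 410.4 in irx3-2 Lin, 212 and 249.5 in irx3-2 MS, 17.1 and 18.4 in Col-0 Lin, and 205 and 306 in Col-0 MS (interaction 4.69 ± 0.32 SE, adjusted p = 8.89e-05, all 8 fits). The Col-0 Lin libraries were lower than all others. Its whole sequence is present at 100% identity in the mitochondrial genome and 92.5% of it at 97.3% identity in the plastid genome. Its reads can therefore not be assigned to the nuclear locus.

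A set of 8 genes listed for beta-oxidation, the glyoxylate cycle and gluconeogenesis rose in both genotypes and more in irx3-2. Peroxisomal beta-oxidation breaks fatty acids to acetyl-CoA, and the glyoxylate cycle and phosphoenolpyruvate carboxykinase turn it to sugar in germinating seedlings. The list was drawn up after the values had been seen. Of 26 members tested, 8 passed with a higher interaction (all genes 0.356%), none with a lower one, and the median was 0.56. In irx3-2, 20 of the 26 rose and 1 fell, and in Col-0 15 rose and 1 fell. Among all 20251 genes, 3197 rose and 3638 fell in irx3-2, and 2431 rose and 3490 fell in Col-0. PCK1 (AT4G37870), phosphoenolpyruvate carboxykinase, had 18985 and 18683 in irx3-2 Lin, 3628 and 3803 in irx3-2 MS, 6725 and 7267 in Col-0 Lin, and 2908 and 3049 in Col-0 MS. It rose in both genotypes, by 2.34 in irx3-2 and 1.23 in Col-0 (interaction 1.11 ± 0.13 SE, adjusted p = 0.00531, 5 of 8 fits), and the irx3-2 Lin libraries were far above all others.

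MFP2 (AT3G06860), the multifunctional protein of beta-oxidation, had 5021 and 4199 in irx3-2 Lin, 1180 and 1318 in irx3-2 MS, 1419.9 and 1478 in Col-0 Lin, and 1036 and 816 in Col-0 MS (interaction 1.22 ± 0.19 SE, adjusted p = 0.0194). The acyl-CoA oxidase ACX2 had 0.79 ± 0.15, and the thiolases KAT5 and PKT3 had 1.17 ± 0.20 and 0.81 ± 0.14. Peroxisomal citrate synthase CSY3 had 0.95 ± 0.18, the aconitase ACO3 1.09 ± 0.19 and the succinate dehydrogenase subunit SDH1-1 0.75 ± 0.14. All 7 rose in both genotypes, and irx3-2 Lin was the highest group in each. Isocitrate lyase (ICL) and malate synthase (MLS), the enzymes particular to the glyoxylate cycle, rose in both genotypes. Their interactions, −1.24 ± 0.39 for ICL and 0.64 ± 0.48 for MLS, did not pass. The seed transcripts that were higher in both irx3-2 groups stood beside these genes, and their part in the result was not tested. The count of 8 became 0 to 4 in the fits without any 1 of the 4 lincomycin libraries or of the 2 Col-0 MS libraries, and 8 and 9 without an irx3-2 MS library.

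Single genes of stress and hormone lists had higher interactions, beside 0.356% of all genes. Their lists did not all share this sign. The 11 glutathione transferases had a median interaction of −0.11 with 4 positive values, and the 10 auxin genes −0.42 with 4. The 7 heat shock genes had a median of 0.66 with 6 positive values. GSTF6 (AT1G02930, chr1:661088-662475), a glutathione transferase of the phi class, had 4905 and 4700.1 in irx3-2 Lin, 785 and 769.9 in irx3-2 MS, 518 and 647 in Col-0 Lin, and 516 and 375 in Col-0 MS. It rose in irx3-2 and was not called in Col-0 (interaction 2.23 ± 0.22 SE, adjusted p = 0.00183, all 8 fits), and was 1 of 11 in the list of glutathione transferases, which does not hold GSTF12 of the anthocyanin list, that passed. HSP70-4 (AT3G12580), a cytosolic heat shock chaperone, had 1473 and 1209 in irx3-2 Lin, 475 and 358 in irx3-2 MS, 595 and 744 in Col-0 Lin, and 503 and 506 in Col-0 MS (interaction 1.29 ± 0.23 SE, adjusted p = 0.0371, 2 of 8 fits), 1 of 7 heat shock genes. GH3.3, which conjugates auxin to amino acids, fell in Col-0 and not in irx3-2 (0.21 in irx3-2, −1.49 in Col-0) (interaction 1.71 ± 0.32 SE, adjusted p = 0.0423, 2 of 8 fits), 1 of 10 auxin genes.

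Nuclear genes of photosynthesis fell in both genotypes, and 1 of those listed had a called interaction. The antenna protein gene LHCB1.2 (AT1G29910), which shares sequence with close copies, had 950.3 and 1083 in irx3-2 Lin, 62429 and 72091 in irx3-2 MS, 819 and 795 in Col-0 Lin, and 49496 and 49448 in Col-0 MS. It fell strongly in both genotypes (−6.05 in irx3-2, −5.94 in Col-0). Its interaction was −0.11 ± 0.15, with a 95% interval of −0.44 to 0.22 (adjusted p = 0.818). Of 20 antenna genes all fell in both genotypes, and 17 of the 20 interactions were negative. Of these 20 genes, 9 had an unadjusted p below 0.05 (all genes 12.6%), and the median was −0.26. LHCB1.4 passed with a lower interaction (all genes 0.301% lower and 0.657% in either direction). LHCB1.4 (AT2G34430) had 113 and 142 in irx3-2 Lin, 49064 and 59910 in irx3-2 MS, 188 and 189 in Col-0 Lin, and 39469 and 37812 in Col-0 MS (interaction −1.06 ± 0.18 SE, adjusted p = 0.0309, 2 of 8 fits), with irx3-2 the higher genotype on MS and the lower on lincomycin. None of 31 nuclear photosystem and electron transport genes (median −0.17, 6 at an unadjusted p below 0.05) and none of 20 Calvin-Benson genes (median 0.02, 1 at an unadjusted p below 0.05) passed in limma, edgeR or DESeq2, though all of them fell in both genotypes.

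The nuclear genes for plastid ribosomal proteins, 27 in number, all fell in both genotypes and all 27 had a positive interaction, yet 0 passed in limma or edgeR, 1 in DESeq2 (PRPL13), and 13 had an unadjusted p below 0.05 (median 0.35). PRPL13 had the smallest p of them (0.60 ± 0.15, adjusted p = 0.110). Over all genes 0.657% passed in limma and 12.6% had an unadjusted p below 0.05. Of 7 plastid chaperone genes 2 passed, CPN60B1 and CPHSC70-1, both higher (all genes 0.356%), with a median of 0.74. CPN60B1 (AT1G55490), a subunit of the chaperonin that folds Rubisco, had 5260.3 and 4866 in irx3-2 Lin, 6096 and 6037 in irx3-2 MS, 4184 and 3904 in Col-0 Lin, and 8134 and 9022 in Col-0 MS (interaction 0.82 ± 0.14 SE, adjusted p = 0.0269). CPHSC70-1 (AT4G24280), an import chaperone, had 5533 and 5444 in irx3-2 Lin, 4804 and 5393 in irx3-2 MS, 3693 and 3705 in Col-0 Lin, and 6032 and 5569 in Col-0 MS (interaction 0.76 ± 0.13 SE, adjusted p = 0.0353). Both fell in Col-0 and were not called in irx3-2, and both passed in the 2 fits without an irx3-2 MS library, where 4 chaperone genes did, against 0 in the other 6. In tetrapyrrole synthesis, GSA2 (AT3G48730), glutamate-1-semialdehyde aminomutase, which makes the precursor of chlorophyll, fell in both genotypes (−0.40 in irx3-2, −1.17 in Col-0). GSA2 passed (interaction 0.77 ± 0.13 SE, adjusted p = 0.0339), 1 of 28 members (all genes 0.356% higher) with a median of 0.20.

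Genes of the rapid response to touch, wounding and pathogens held 7 with lower interactions. Such genes are switched on within minutes by calcium and MAP kinase signalling. The list was put together after the values had been seen. Of 19 members tested 7 passed, all lower, against 0.301% of all genes, and the median was −1.91. On lincomycin 2 of the 19 rose and 8 fell in irx3-2, and 10 rose and none fell in Col-0. Beside them, 3197 of all 20251 genes rose and 3638 fell in irx3-2, and 2431 rose and 3490 fell in Col-0. TCH3 (AT2G41100), a calmodulin-like protein induced by touch, had 90.1 and 94.7 in irx3-2 Lin, 311 and 393 in irx3-2 MS, 465 and 613 in Col-0 Lin, and 432 and 320.1 in Col-0 MS (interaction −2.43 ± 0.28 SE, adjusted p = 0.00508, 6 of 8 fits). The irx3-2 Lin libraries lay below the other 6. TCH3 is covered to 43.9% by another gene, and the strand setting of the counting is not stated.

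MPK3 (AT3G45640), a MAP kinase of immunity, had 196 and 191 in irx3-2 Lin, 536 and 701 in irx3-2 MS, 450.1 and 455 in Col-0 Lin, and 424 and 340.4 in Col-0 MS (interaction −1.91 ± 0.23 SE, adjusted p = 0.00555, 4 of 8 fits). ACS6 (AT4G11280), which makes the precursor of ethylene and is a substrate of MPK3, had 209 and 154 in irx3-2 Lin, 463 and 595 in irx3-2 MS, 529.6 and 433 in Col-0 Lin, and 319 and 294 in Col-0 MS (interaction −2.19 ± 0.26 SE, adjusted p = 0.00555, 6 of 8 fits). In both genes irx3-2 Lin was the lowest group. The zinc finger gene SZF1 (AT3G55980) had 744 and 539 in irx3-2 Lin, 793 and 791 in irx3-2 MS, 1365 and 1529 in Col-0 Lin, and 647 and 551 in Col-0 MS (interaction −1.60 ± 0.22 SE, adjusted p = 0.0101, 5 of 8 fits), and here Col-0 Lin stood apart on the high side. CAF1a (AT3G44260), an mRNA deadenylase, had −2.24 ± 0.31 (effects −0.79 in irx3-2 and 1.45 in Col-0, interaction adjusted p = 0.0116). CZF1, a zinc finger protein close to SZF1, had −1.01 ± 0.15 (effects −0.11 in irx3-2 and 0.91 in Col-0, interaction adjusted p = 0.0139). CBP60G, an activator of salicylate synthesis, had −2.18 ± 0.41 (effects −0.70 in irx3-2 and 1.47 in Col-0, interaction adjusted p = 0.0458). Among the members that passed, CBP60G had the largest adjusted p. The effects of CZF1 and CBP60G in irx3-2 were not called. Of the members that did not pass, WRKY46 (−4.12 ± 1.15) and SARD1 (−3.85 ± 1.09) had the most negative values, with adjusted p = 0.150 and 0.155, and WRKY53 the highest (0.65 ± 0.85).

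Beside the next list, 0.301% of all genes had a called lower interaction. WRKY70 (AT3G56400), a regulator between salicylate and jasmonate signalling, had 45.4 and 45.1 in irx3-2 Lin, 89.5 and 65.5 in irx3-2 MS, 202 and 148 in Col-0 Lin, and 70.5 and 68.4 in Col-0 MS. It fell in irx3-2 and rose in Col-0 (interaction −2.05 ± 0.37 SE, adjusted p = 0.0390, 2 of 8 fits), 1 of 6 salicylate genes. AR781 (AT2G26530), of unknown function, had −2.68 in irx3-2 and −0.51 in Col-0 (interaction −2.17 ± 0.41 SE, adjusted p = 0.0449, 1 of 8 fits). The count of 7 rapid response genes became 2 without irx3-2 Lin replicate 2 or 3, 1 without Col-0 Lin replicate 1 and 0 without Col-0 Lin replicate 3, and was 6 to 8 in the other fits.

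**Figure D4:**
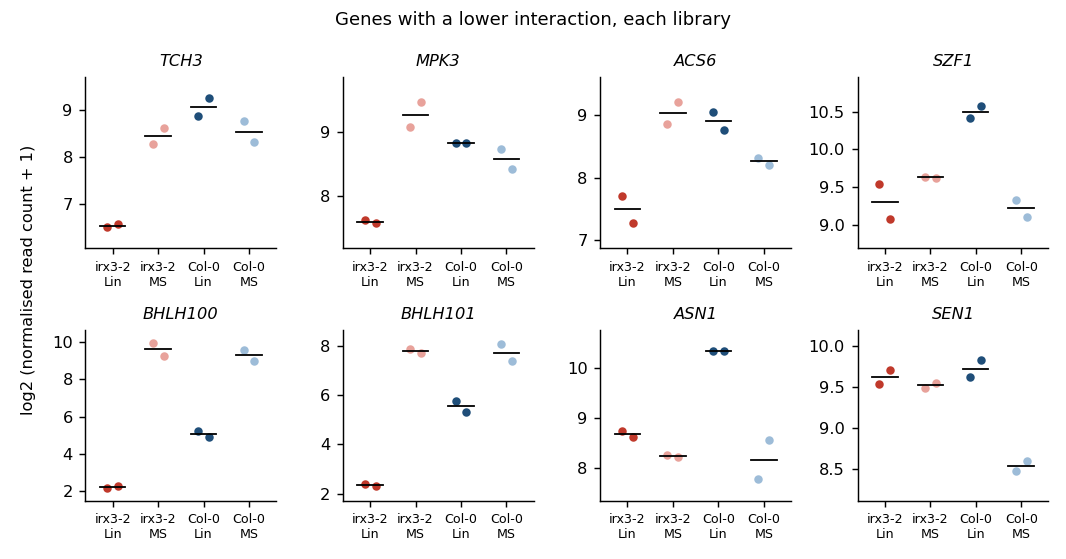
Level in each library, as log2 of the normalised read count plus 1, of 4 rapid response genes, 2 iron regulator genes and 2 sugar starvation genes in irx3-2 Lin, irx3-2 MS, Col-0 Lin and Col-0 MS; points are libraries and bars are means of 2. TCH3, MPK3, ACS6, BHLH100 and BHLH101 are lowest in irx3-2 Lin, and SZF1 and ASN1 are highest in Col-0 Lin.

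The iron deficiency regulators BHLH100 and BHLH101 fell in both genotypes and further in irx3-2. Subgroup Ib bHLH factors are switched on in iron-poor plants and act with FIT on the uptake genes. Of 19 iron genes tested 2 passed, both lower (all genes 0.301%). An unadjusted p below 0.05 was found for 12 (all genes 12.6%), with a median of −1.28. In irx3-2 18 of the 19 fell on lincomycin and in Col-0 14 did, beside 3638 of all 20251 genes in irx3-2 and 3490 in Col-0. BHLH100 (AT2G41240, chr2:17198037-17199454) had 3.55 and 3.92 in irx3-2 Lin, 980.4 and 604 in irx3-2 MS, 36.5 and 29.5 in Col-0 Lin, and 755 and 498 in Col-0 MS. The genotypes overlapped on MS, and on lincomycin irx3-2 had under 5 normalised counts per library (interaction −3.16 ± 0.42 SE, adjusted p = 0.0101, 4 of 8 fits). BHLH101 (AT5G04150, chr5:1138410-1139633) had 4.26 and 3.92 in irx3-2 Lin, 234 and 212 in irx3-2 MS, 54.1 and 39.3 in Col-0 Lin, and 268 and 169 in Col-0 MS, with the same pattern (interaction −3.28 ± 0.45 SE, adjusted p = 0.0106, 4 of 8 fits). The related BHLH38 and BHLH39 had −3.34 ± 0.78 (adjusted p = 0.0934) and −2.54 ± 0.50 (adjusted p = 0.0538), and BHLH38 is covered to 31.9% by another gene. FIT itself was called in neither genotype (−1.50 in irx3-2, −1.54 in Col-0) and had 0.04 ± 0.77. The ferric reductase FRO2 (1.59 ± 0.73) and the iron transporter IRT1 (2.80 ± 0.59, adjusted p = 0.0669) had positive values that did not pass, and IRT1 was at 0 reads in both Col-0 Lin libraries. Without any 1 of the 4 lincomycin libraries 0 iron genes passed, and without irx3-2 MS replicate 2 the number was 8 and without Col-0 MS replicate 2 it was 4. FER1, a ferritin that stores iron and rises when iron is plentiful, fell in both genotypes (−0.96 in irx3-2, −2.36 in Col-0). Its interaction did not pass (adjusted p = 0.0753), and it is covered to 63.6% by another gene.

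The sugar starvation genes ASN1 and SEN1 and the hexose transporter gene STP1 rose on lincomycin in Col-0 and were not called in irx3-2. ASN1 (AT3G47340), asparagine synthetase, induced by darkness and sugar starvation, had 426 and 395 in irx3-2 Lin, 307 and 297 in irx3-2 MS, 1292 and 1292 in Col-0 Lin, and 219 and 378 in Col-0 MS (interaction −1.72 ± 0.29 SE, adjusted p = 0.0280, 4 of 8 fits). SEN1 (AT4G35770), a senescence gene, had 742 and 832 in irx3-2 Lin, 716 and 749 in irx3-2 MS, 783 and 907 in Col-0 Lin, and 355 and 386 in Col-0 MS (interaction −1.08 ± 0.17 SE, adjusted p = 0.0213, 3 of 8 fits). The Col-0 Lin libraries of ASN1 were far above all others, while for SEN1 the Col-0 MS libraries were the lowest. ASN1 and SEN1 were 2 of 5 sugar starvation genes (all genes 0.301% lower), with a median of −0.65. STP1 (AT1G11260), a hexose transporter of the plasma membrane covered to 12.2% by another gene, had 934 and 1018 in irx3-2 Lin, 1018 and 969.9 in irx3-2 MS, 2218 and 2278 in Col-0 Lin, and 1069 and 1299 in Col-0 MS (interaction −0.96 ± 0.16 SE, adjusted p = 0.0276, 3 of 8 fits). It was 1 of 5 genes in the list named sugar induced (all genes 0.301% lower), and its own response to sugar was not tested here. Of these 5, 3 had a positive interaction, and the median was 0.54, opposite in sign to STP1.

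Of the aquaporins, channels for water, 4 fell in irx3-2 with lower interactions. Of 27 genes tested, taken from the deposited descriptions after the values had been seen, 4 passed, all lower (all genes 0.301%), with a median of −0.32. On lincomycin 17 of the 27 fell in irx3-2 and 12 in Col-0, beside 3638 of all 20251 genes in irx3-2 and 3490 in Col-0. DELTA-TIP (AT3G16240), of the vacuole membrane and covered to 33.4% by another gene, had 3131 and 3653 in irx3-2 Lin, 10590 and 12766 in irx3-2 MS, 5963 and 5617 in Col-0 Lin, and 9558 and 8907 in Col-0 MS (interaction −1.11 ± 0.17 SE, adjusted p = 0.0181). PIP1;5, PIP1C and PIP3, of the plasma membrane, had −0.76 ± 0.13, −0.83 ± 0.15 and −0.72 ± 0.13. PIP1C and PIP3 fell in irx3-2 and had effects of −0.83 in irx3-2 and 0.00 in Col-0 and −0.76 in irx3-2 and −0.04 in Col-0. All 4 passed only in the 2 fits without an irx3-2 MS library.

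**Figure D5:**
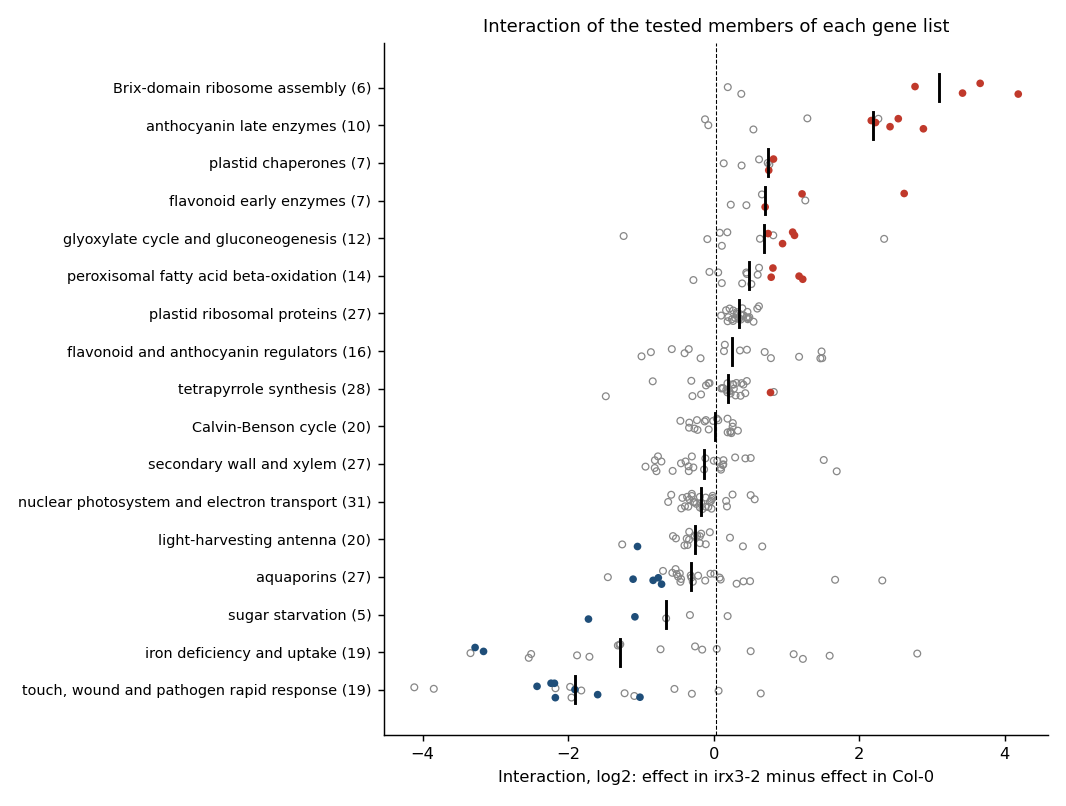
Interaction (log2, effect in irx3-2 minus effect in Col-0) of the tested members of 17 gene lists, with the number tested in parentheses. Filled points passed the test (red higher, blue lower), open points did not, thick bars are list medians and the dashed line is the median of all 20251 genes; medians run from 3.09 for Brix-domain genes to −1.91 for rapid response genes.

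Secondary wall and xylem genes, the class that IRX3 belongs to, had no called interaction. Of 27 tested, 0 passed in limma, edgeR or DESeq2, beside 0.657% of all genes in limma. The median SE of the 27 was 0.48. An unadjusted p below 0.05 was found for 2 (all genes 12.6%), with a median of −0.13. CESA7 (AT5G17420) had 294 and 401 in irx3-2 Lin, 712 and 711 in irx3-2 MS, 222 and 209.6 in Col-0 Lin, and 265 and 278 in Col-0 MS. It was higher in both irx3-2 groups than in the Col-0 group on the same medium and had an interaction of −0.72 ± 0.22, with a 95% interval of −1.21 to −0.23 (adjusted p = 0.195). Its partner subunits CESA4 and CESA8 had 0.13 ± 0.25 and 0.13 ± 0.32.

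The largest interactions outside these groups belonged to single genes. NAC036 (AT2G17040, chr2:7406911-7408393), a NAC transcription factor, had 72.4 and 55.5 in irx3-2 Lin, 33.0 and 35.4 in irx3-2 MS, 153 and 158 in Col-0 Lin, and 0 and 0 in Col-0 MS. With 0 reads in Col-0 MS, it was at least 69.5-fold higher in Col-0 Lin, taking 3 reads over the group as the floor, while it was not called in irx3-2 (fitted interaction −6.42 ± 0.56 SE, adjusted p = 9.98e-04, all 8 fits). AT1G52070, a mannose-binding lectin gene, had 2.84 and 4.57 in irx3-2 Lin, 11.0 and 31.9 in irx3-2 MS, 0 and 0 in Col-0 Lin, and 190.0 and 188 in Col-0 MS. It was at least 209-fold lower in Col-0 Lin than in Col-0 MS on the same kind of floor, and it was low in both irx3-2 groups (fitted interaction 5.47 ± 0.91 SE, adjusted p = 0.0271, 2 of 8 fits). Such bounds cover counting error only, and the fitted values depended on the settings. Over the settings that kept all libraries, the interaction ran from −9.55 to −4.20 for NAC036 and from 3.79 to 8.27 for AT1G52070.

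Other large higher values were those of genes that fell in Col-0. ABR (AT3G02480), a late embryogenesis abundant protein gene, had 1522 and 806 in irx3-2 Lin, 677 and 807 in irx3-2 MS, 43.0 and 62.1 in Col-0 Lin, and 561 and 537 in Col-0 MS (interaction 3.97 ± 0.37 SE, adjusted p = 0.00141, all 8 fits). The lectin gene AT2G25980 had 1.15 in irx3-2 and −2.37 in Col-0 (interaction 3.52 ± 0.43 SE, adjusted p = 0.00555), and the mechanosensitive channel gene MSL9 (AT5G19520) 2.06 in irx3-2 and −2.38 in Col-0 (interaction 4.43 ± 0.62 SE, adjusted p = 0.0116), each in 4 of 8 fits. MEE38 (5.36 ± 1.02 SE, adjusted p = 0.0468) and AT5G66985 (3.34 ± 0.59 SE, adjusted p = 0.0353) rose in irx3-2 and fell in Col-0 with fewer than 100 normalised counts in every library, each in 2 of 8 fits. Over the same settings the value of MEE38 ran from 3.38 to 7.50.

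After NAC036, large lower values were those of genes that fell in both genotypes and further in irx3-2. AT1G13609, a defensin-like gene, had 4.26 and 7.84 in irx3-2 Lin, 1508 and 739.8 in irx3-2 MS, 158 and 177 in Col-0 Lin, and 1360.5 and 867 in Col-0 MS (interaction −4.58 ± 0.49 SE, adjusted p = 0.00339, 6 of 8 fits). Levels overlapped between genotypes on MS and did not on lincomycin. MLP328 (AT2G01520), of the major latex protein family, had 4.26 and 2.61 in irx3-2 Lin, 503 and 296 in irx3-2 MS, 58.3 and 59.6 in Col-0 Lin, and 472 and 319 in Col-0 MS (interaction −3.77 ± 0.46 SE, adjusted p = 0.00622, 6 of 8 fits), and AT2G00920, with no description, −3.66 ± 0.53 SE, adjusted p = 0.0151. BGLU18 (AT1G52400), a beta-glucosidase that frees abscisic acid from its glucose ester, had 209 and 201 in irx3-2 Lin, 1774 and 1681 in irx3-2 MS, 367 and 339.9 in Col-0 Lin, and 700.1 and 861 in Col-0 MS (interaction −1.93 ± 0.18 SE, adjusted p = 0.00141, all 8 fits). PELPK1 (−2.74 ± 0.42), the osmotin-like OSM34 (−2.73 ± 0.40), the half-transporter ABCG6 of suberin formation (−2.36 ± 0.40) and the terpene synthase TPS-CIN (−2.51 ± 0.39) also fell in both genotypes and more in irx3-2. TPS-CIN has a copy of 100% identity on the same chromosome. AT2G32870, a TRAF-like gene, rose in Col-0 and was not called in irx3-2 (0.18 in irx3-2, 2.82 in Col-0) (interaction −2.64 ± 0.43 SE, adjusted p = 0.0233).

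The remaining lists held no called member in limma, beside 0.657% of all genes. Beside their counts at an unadjusted p below 0.05, the share over all genes was 12.6%. edgeR called VSP2, and DESeq2 called VSP2, PAL1, SDI1, PARP2, CYP79F1, CYP83A1, KIN1, LTI30, NCED3, P5CS1, FER1, FER3 and FER4, and neither called any other member of these lists. In jasmonate 0 of 15 passed and 4 had an unadjusted p below 0.05 (median −0.34), and VSP2, a vegetative storage protein, had the smallest p (−1.22 ± 0.26). In abscisic acid, cold and dehydration these counts were 0 of 18 and 6 (median −0.46), led by the dehydrin gene LTI30 (−1.34 ± 0.31), and in aliphatic glucosinolate synthesis 0 of 16 and 5 (median −0.33), led by CYP79F1 (−2.10 ± 0.51). In phenylpropanoid and monolignol synthesis they were 0 of 19 and 6 (median 0.14), led by PAL1 (0.68 ± 0.16), and in sulfate assimilation 0 of 9 and 1 (median 0.48), led by SDI1 (1.97 ± 0.49). The DNA damage response had 0 of 9 and 2 (median 0.35), led by PARP2 (adjusted p = 0.103), which rose in both genotypes (4.14 in irx3-2, 2.94 in Col-0). The mitochondrial retrograde response had 0 of 8 and 1 (median 0.23), led by AT2G21640 (1.00 ± 0.37). Plastid-encoded photosynthesis genes had 0 of 25 and 3 (median 0.03), led by NDHJ (0.45 ± 0.14), and plastid genes read by the nuclear-encoded polymerase 0 of 8 and 2 (median 0.50), led by YCF2.1 (0.97 ± 0.35).

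Among tissue markers 0 of 9 root genes passed (2 at an unadjusted p below 0.05, median 1.11, led by PIN2 at 2.09 ± 0.65) and 0 of 12 seed genes (2, median 0.62, led by SESA2 at 3.63 ± 0.91). Of 5 phloem genes 0 passed (4, median −0.60, led by APL at −0.96 ± 0.22), and of 7 epidermis and guard cell genes 0 (3, median −0.50, led by CER6 at −0.50 ± 0.12). Reference genes had 0 of 9 (3, median 0.02, led by GAPC1 at 0.59 ± 0.19). Greening and retrograde regulators had 0 of 13 (2, median 0.20, led by GUN1, the integrator of plastid signals, at 0.48 ± 0.14), and ferritin and oxidative stress genes 0 of 10 (4, median 0.46). Circadian clock genes had 0 of 11 (2, median −0.14, led by RVE8 at −0.90 ± 0.25), nitrate genes 0 of 7 (5, median −0.13, led by NRT1.8 at −1.37 ± 0.39), indole glucosinolate genes 0 of 9 (1, median −0.20, led by CYP83B1 at −0.44 ± 0.18), primary wall cellulose genes 0 of 10 (0, median −0.15, led by CTL1 at −0.28 ± 0.13) and cell division genes 0 of 8 (0, median 0.08, led by CDKB1;1 at 0.80 ± 0.40).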

How the data were processed

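RNA sequencing of 8 libraries was used, 2 for each of 4 groups, as the labels give them. Per the submitters' processing notes, Trimmomatic, FastQC, TopHat2 2.1.1, featureCounts and DESeq2 were used with TAIR10; strand setting and treatment of multiply mapped reads are not given in the sources used here. The authors deposited normalised counts, a signal in which each library's reads are multiplied by 1 factor; the same 8 columns stand in 4 tables. All values were whole multiples of 1 number per library to within 0.01 (100%), so reads were recovered, 15032240 to 19488440 per library.

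The members and lists were chosen with earlier results of these data known, and 7 lists were added after the values were seen here. limma 3.58.1 (R 4.3.3) with a mean-variance trend was fitted to log2 of the normalised count plus 1 for 20251 genes, with 4 group means, 4 residual degrees of freedom and Benjamini-Hochberg adjustment over all genes at 0.05. The filter's nearest members were AT4G23205 inside (second-highest library 10.0) and RRN5 outside (9.94). edgeR 4.0.16 and DESeq2 1.42.0 on the recovered reads, other pseudocounts, filters and scalings, a replicate block and the omission of each library were tried as alternatives. Named genes were the 12 largest called interactions in each direction with at least 10 counts in every group mean and replicates within 2-fold, the 4 largest other called genes in each direction, up to 4 called members a direction of each list, the member with the smallest p of each list without calls, CESA7, LHCB1.2, all flavonoid genes and the 6 strongest opposite-sign genes. Positions and overlaps come from the RefSeq annotation of TAIR10.1 and the promoters from its genome, since no table of promoters was used; the files hold no coordinates. The scripts were tested on simulated data.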

Additional observations from a re-analysis of the deposited data

Results flagged for a closer look

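The test of the difference itself, the interaction in limma, separated the lincomycin effect in irx3-2 from that in Col-0 for 133 of 20251 genes. The 69 of them that the text names by rule are given here with the log2 interaction, which is the effect in irx3-2 minus the effect in Col-0. More than 8-fold differences on the higher side, most of them of genes low in Col-0 Lin, were those of AT1G52070 (5.47), MEE38 (5.36), AT2G07739 (4.69), MSL9 (4.43), ATBRX1-2 (4.19), ABR (3.97), IMP4 (3.66), RRN26 (3.59), AT2G25980 (3.52), AT3G13180 (3.49), MEE49 (3.42), AT5G66985 (3.34), ORF107A (3.31), DIM1B (3.29), FIO1 (3.21) and AT5G40530 (3.03). Between 4-fold and 8-fold, where the anthocyanin genes lie, were LDOX (2.88), ATBRX1-1 (2.77), F3'H (2.62), UGT79B1 (2.54), DFR (2.42), GSTF6 (2.23), UGT75C1 (2.22), GSTF12 (2.17) and PFC1 (2.08). Between 2-fold and 4-fold, with members of the beta-oxidation and glyoxylate cycle lists, were RRN18 (1.91), GH3.3 (1.71), HSP70-4 (1.29), MFP2 (1.22), UGT78D2 (1.21), KAT5 (1.17), PCK1 (1.11) and ACO3 (1.09). Smaller higher interactions were those of CSY3 (0.95), CPN60B1 (0.82), PKT3 (0.81), ACX2 (0.79), GSA2 (0.77), CPHSC70-1 (0.76), SDH1-1 (0.75) and CHS (0.71). On the lower side, the smallest were PIP3 (−0.72), PIP1;5 (−0.76), PIP1C (−0.83) and STP1 (−0.96), a hexose transporter and 3 water channels. Between 2-fold and 4-fold lower were LHCB1.4 (−1.06), SEN1 (−1.08), DELTA-TIP (−1.11), SZF1 (−1.60), ASN1 (−1.72), MPK3 (−1.91) and BGLU18 (−1.93). Between 4-fold and 8-fold lower were WRKY70 (−2.05), AR781 (−2.17), CBP60G (−2.18), ACS6 (−2.19), CAF1a (−2.24), ABCG6 (−2.36), TCH3 (−2.43), TPS-CIN (−2.51), AT2G32870 (−2.64), OSM34 (−2.73) and PELPK1 (−2.74). The most negative values were those of BHLH100 (−3.16), BHLH101 (−3.28), AT2G00920 (−3.66), MLP328 (−3.77), AT1G13609 (−4.58) and NAC036 (−6.42). The calls of AT2G07739, ATBRX1-2, ABR, RRN26, AT3G13180, MEE49, GSTF6, BGLU18 and NAC036 were made in all 8 fits without 1 library.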

How the results depend on the processing

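The count of 133 interaction genes was 130 to 151 with a pseudocount of 0.5 or 5, a filter of 50 counts, TMM scaling or nuclear size factors. It was 29 without a filter on low values, 12 in limma without the trend, 190 in edgeR and 376 in DESeq2, and 132 of the 133 were among those of each count model. The fit with a replicate block gave 24, 22 of them shared; the numbers were not taken to pair the samples, since the deviations of same-numbered libraries correlated at −0.137 to 0.126 across genes, not above 0.1 in every pair. Without 1 library the count was 11 to 361, and the genes changed by lincomycin numbered 3828 to 7252 in irx3-2 and 3300 to 7117 in Col-0. All 133 kept their sign in each alternative that gave them a value, which was all of them but for RRN26, RRN18 and ORF107A (9 of 10 settings with all libraries) and MEE38 (8 of 10). The calls depended on the settings, and so did the size for genes near 0 reads; the cause was not tested.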

Other observations

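The called genes described here were chosen after their values were seen, and no list was tested for them. XTH6 (AT5G65730), a xyloglucan endotransglucosylase, had 789.9 and 874 in irx3-2 Lin, 1136 and 1265 in irx3-2 MS, 1953 and 1980 in Col-0 Lin, and 1129 and 1069 in Col-0 MS (interaction −1.37 ± 0.15 SE, adjusted p = 0.00339), and it fell in irx3-2 and rose in Col-0. The expansin-like gene EXLA1 (−1.72 ± 0.23) did the same, and the expansin gene EXPA8 (adjusted p = 0.0181) fell in both. The sulfate transporter gene SULTR2;1 had −1.21 ± 0.19, the metal-nicotianamine transporter gene YSL2 −1.32 ± 0.23 and the nitrate transporter gene NPF1.2 −0.92 ± 0.16, and all 3 fell in both genotypes.

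ADH1 (AT1G77120), alcohol dehydrogenase, had 1033 and 1127 in irx3-2 Lin, 110.2 and 136 in irx3-2 MS, 158 and 176 in Col-0 Lin, and 79.7 and 100.4 in Col-0 MS (interaction 2.24 ± 0.26 SE, adjusted p = 0.00508). ATCDC48B, an AAA ATPase of protein quality control, rose in both genotypes with an interaction of 1.39 ± 0.17. The ABC transporter gene ABCG35 (AT1G15210) had 319 and 267 in irx3-2 Lin, 162 and 191 in irx3-2 MS, 109 and 96.5 in Col-0 Lin, and 415 and 326 in Col-0 MS (interaction 2.55 ± 0.26 SE, adjusted p = 0.00264), rose in irx3-2 and fell in Col-0, and passed in all 8 fits without 1 library. The chaperonin genes CPN60BETA2 (1.25 ± 0.17) and CPN20 (0.83 ± 0.15), covered to 14.5% and 27.4% by other genes, fell in Col-0 and were not called in irx3-2.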
